A study of Mus musculus with 20 samples.

Results

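The comparison described here set ovary samples labelled ptLNPIFN-Y against ovary samples labelled Model in mouse bulk RNA sequencing. It used 10 of the 20 libraries in the series, chosen by their labels: 5 of ptLNPIFN-Y (treatment label ovarian cancer/ptLNPIFN-Y) and 5 of Model (treatment label ovarian cancer). LNPIFN-Y (ovarian cancer/LNPIFN-Y) served as the most similar group and Control (treatment label N/A) as the background, each with 5 libraries. Per the series text, the study put interferon-γ (IFN-γ) mRNA into lipid nanoparticles, and pt marks a particle that carries a targeting peptide. What the particle without that prefix carries on its surface is not in the labels. The same text describes C57BL/6 mice with an orthotopic tumour of ID8Luci cells, a luciferase-marked version of a mouse ovarian surface epithelial line. Those cells were placed in the ovarian bursa after it had been expanded with a particle for follicle-stimulating hormone, an agent that the tumour arms of that text share. It gives 60 days of tumour growth, intraperitoneal injections every 3 days from day 62 to day 95, and harvest on day 97. No label ties the bulk libraries to that schedule, and sex, age and strain are not among the labels used here. The series holds no group labelled with a particle that lacks the IFN-γ mRNA, so what the mRNA did and what its carrier did cannot be told apart. Whether the 5 libraries of each group are 5 animals is not in the labels. The p-values therefore measure the spread between these samples, which may be technical.

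IFN-γ is a cytokine made mainly by activated T cells and natural killer (NK) cells. It binds a receptor of the chains Ifngr1 and Ifngr2, whose kinases Jak1 and Jak2 start a signal to the gamma-activated sequence (GAS) in promoters, among them that of Irf1, a transcription factor that in turn acts with related factors on the interferon-stimulated response element (ISRE). Genes downstream include interferon-inducible GTPases, antigen presentation genes, the chemokines Cxcl9 and Cxcl10, the checkpoint ligand Cd274 (PD-L1) and the enzyme Ido1. The ovary itself holds oocytes, granulosa, theca and luteal cells in a stroma, with resident macrophages among them.

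Promoters of 6 genes that were higher in ptLNPIFN-Y are shown because they hold the letters of these elements. Each is a RefSeq window of 300 bases on GRCm38.p6, from 250 before to 50 after the annotated start, 5′ to 3′ on the gene's strand. Capitals mark GAS (TTCNNNGAA) and ISRE (GAAANNGAAA or TTTCNNTTTC), searched on both strands. The windows are chr11:53769764-53770063 (plus strand) for Irf1, chr3:142620413-142620712 (plus) for Gbp2, chr19:34583279-34583578 (plus) for Ifit3, chr2:122147437-122147736 (plus) for B2m, chr11:49064163-49064462 (minus) for Tgtp2 and chr11:58199306-58199605 (plus) for Igtp.
Irf1: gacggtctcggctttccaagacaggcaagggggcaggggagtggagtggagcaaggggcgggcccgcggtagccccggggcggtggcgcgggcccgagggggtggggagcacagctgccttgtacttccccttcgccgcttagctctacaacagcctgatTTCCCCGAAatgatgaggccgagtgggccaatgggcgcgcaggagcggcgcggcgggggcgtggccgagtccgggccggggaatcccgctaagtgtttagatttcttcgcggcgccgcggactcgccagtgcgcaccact
Gbp2: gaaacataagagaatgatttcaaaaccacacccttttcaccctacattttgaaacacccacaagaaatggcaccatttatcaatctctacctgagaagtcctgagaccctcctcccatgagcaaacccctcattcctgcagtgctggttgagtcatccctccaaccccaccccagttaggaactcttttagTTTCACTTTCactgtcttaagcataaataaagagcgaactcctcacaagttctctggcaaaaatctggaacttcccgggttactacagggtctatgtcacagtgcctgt
Ifit3: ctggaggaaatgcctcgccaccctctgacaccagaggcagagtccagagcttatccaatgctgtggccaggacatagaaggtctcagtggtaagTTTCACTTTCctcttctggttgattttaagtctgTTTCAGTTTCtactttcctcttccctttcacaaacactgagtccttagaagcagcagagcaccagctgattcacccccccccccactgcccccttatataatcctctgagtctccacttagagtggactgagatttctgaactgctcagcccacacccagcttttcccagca
B2m: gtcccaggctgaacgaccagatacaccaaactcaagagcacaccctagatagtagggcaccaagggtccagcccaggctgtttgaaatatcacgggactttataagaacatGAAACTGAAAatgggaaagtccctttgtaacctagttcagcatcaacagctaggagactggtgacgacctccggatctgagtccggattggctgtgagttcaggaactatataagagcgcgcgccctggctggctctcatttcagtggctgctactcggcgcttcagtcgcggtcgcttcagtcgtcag
Tgtp2: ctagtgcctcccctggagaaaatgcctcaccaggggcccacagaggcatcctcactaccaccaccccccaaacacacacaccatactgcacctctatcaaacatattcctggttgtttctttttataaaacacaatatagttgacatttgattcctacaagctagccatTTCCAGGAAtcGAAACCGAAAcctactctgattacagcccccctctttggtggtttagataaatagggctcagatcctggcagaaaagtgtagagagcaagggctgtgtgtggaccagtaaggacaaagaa
Igtp: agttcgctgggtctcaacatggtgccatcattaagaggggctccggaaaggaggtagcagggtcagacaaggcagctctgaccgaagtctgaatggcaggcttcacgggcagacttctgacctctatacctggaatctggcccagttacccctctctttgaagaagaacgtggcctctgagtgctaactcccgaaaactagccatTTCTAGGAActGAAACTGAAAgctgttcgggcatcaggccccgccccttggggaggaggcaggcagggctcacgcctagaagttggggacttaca
The Irf1 window shown holds a GAS that starts 90 bases before the annotated start and no ISRE. The window of a further annotated Irf1 start, chr11:53770223-53770522, holds neither. Gbp2 has an ISRE at 59 bases, Ifit3 has ISREs at 156 and 122 bases, and B2m has an ISRE at 139 bases. Tgtp2 has a GAS at 81 bases and an ISRE at 70 bases, and Igtp has a GAS at 45 and an ISRE at 34 bases, so the starts of the pair lie 11 bases apart in each.

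Across promoters of this length, a GAS or an ISRE stood in 26.8% of the 738 genes higher in ptLNPIFN-Y that have a window, against 11.6% of the 12454 tested genes with a window. Among the 107 higher genes with a log2 fold change of at least 3, the share was 51.4%. An ISRE, with or without a GAS, stood in 17.3% of the higher genes, 39.3% of those 107 and 3.91% of tested genes. A GAS, with or without an ISRE, stood in 13.1%, 22.4% and 8.33% in the same order. Of the 122 lower genes with a window, 9.02% held either element. The spacing of 11 bases, read from the windows of Tgtp2 and Igtp after their values were seen, occurred in 6 tested genes. All 6 were among the higher ones, against 6.05% of all tested genes. They were Tgtp1, Tgtp2, Igtp, Irgm2 and a predicted gene, all on chromosome 11, of which the first 4 are related GTPases, and Ifitm3, an antiviral membrane protein. Tgtp2 and Igtp gave the spacing and were picked as higher genes, and related genes are not independent, so these 6 are no test of the spacing. No GAS or ISRE of these letters stood in the windows of Cxcl9, Cd274, Ubd, Tap1, Psmb9, H2-Aa or H2-K1. These matches are descriptions of letters and not of bound sites.

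Of 15723 genes tested, 951 were higher in ptLNPIFN-Y than in Model (6.05%) and 149 were lower (0.948%), at an adjusted p under 0.05 from edgeR's quasi-likelihood test. The higher genes had a median log2 fold change of 1.91, and 730 of them changed at least 2-fold, a log2 value of 1. The lower genes had a median of -0.62, and 49 changed at least 2-fold. All 5 ptLNPIFN-Y libraries lay above all 5 Model libraries for 760 genes (4.83%) and below them for 194 genes (1.23%). The fold change was above 0 for 43.8% of tested genes. Without normalization beyond library size, 900 genes were higher and 731 lower, so 55.2% of calls were higher, against 86.5% with trimmed-mean (TMM) scaling. With library size alone the median log2 fold change of all tested genes was -0.178, against -0.05 with TMM scaling, and the list medians below are to be read against -0.05. List counts below are to be read against 6.05% of all tested genes higher and 0.948% lower. Leaving out Model library 3 gave 1578 higher and 685 lower genes. The count of lower genes was 290 without ptLNPIFN-Y library 1, 245 without library 3, 74 without library 4 and 57 without library 5. It was 80 without Model library 2 and 70 without Model library 4.

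The libraries held between 16496793 and 17218043 counts in ptLNPIFN-Y and between 16581478 and 17184097 counts in Model. The labelled tissue was checked with markers of its oocytes, steroid-producing cells and granulosa cells. Zp3, an egg coat protein of oocytes, had 30.1, 10.3, 9.71, 4.93 and 0 CPM (counts scaled to a common effective library size) in ptLNPIFN-Y libraries 1 to 5, against 23.2, 7.32, 4.61, 31.4 and 19 CPM in Model libraries 1 to 5. Cyp11a1, the enzyme that starts steroid synthesis in theca and luteal cells, had 2379, 3205, 1124, 741 and 2.48 CPM in ptLNPIFN-Y and 6324, 781, 1066, 3244 and 5254 CPM in Model. Inha, an inhibin subunit of granulosa cells, had 1371, 524, 340, 295 and 110 CPM in ptLNPIFN-Y and 952, 696, 370, 1254 and 663 CPM in Model. Library 5 of ptLNPIFN-Y was thus the lowest of the 10 for Zp3, Cyp11a1 and Inha, with no count of Zp3 and little Cyp11a1 but with Inha present, so its content goes in part against the label ovary. Without that library 753 genes were higher and 57 lower. Left out in the lists below, it did not change how many genes rose among GTPases, MHC class I and II, NK, dendritic cell, macrophage, cell death, sensor and ubiquitin lists. The number that rose without it was 12 in IFN-γ signalling, 25 in antiviral, 10 in chemokine, 8 in cytokine, 14 in checkpoint and 20 in T cell genes. A fit with 2 tissue covariates, the mean log2 CPM of the ciliated oviduct list and that of the granulosa and oocyte lists together, gave 694 higher and 80 lower genes. In these bulk samples, fewer cells of a type and less RNA per cell cannot be told apart.

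**Figure D1:**
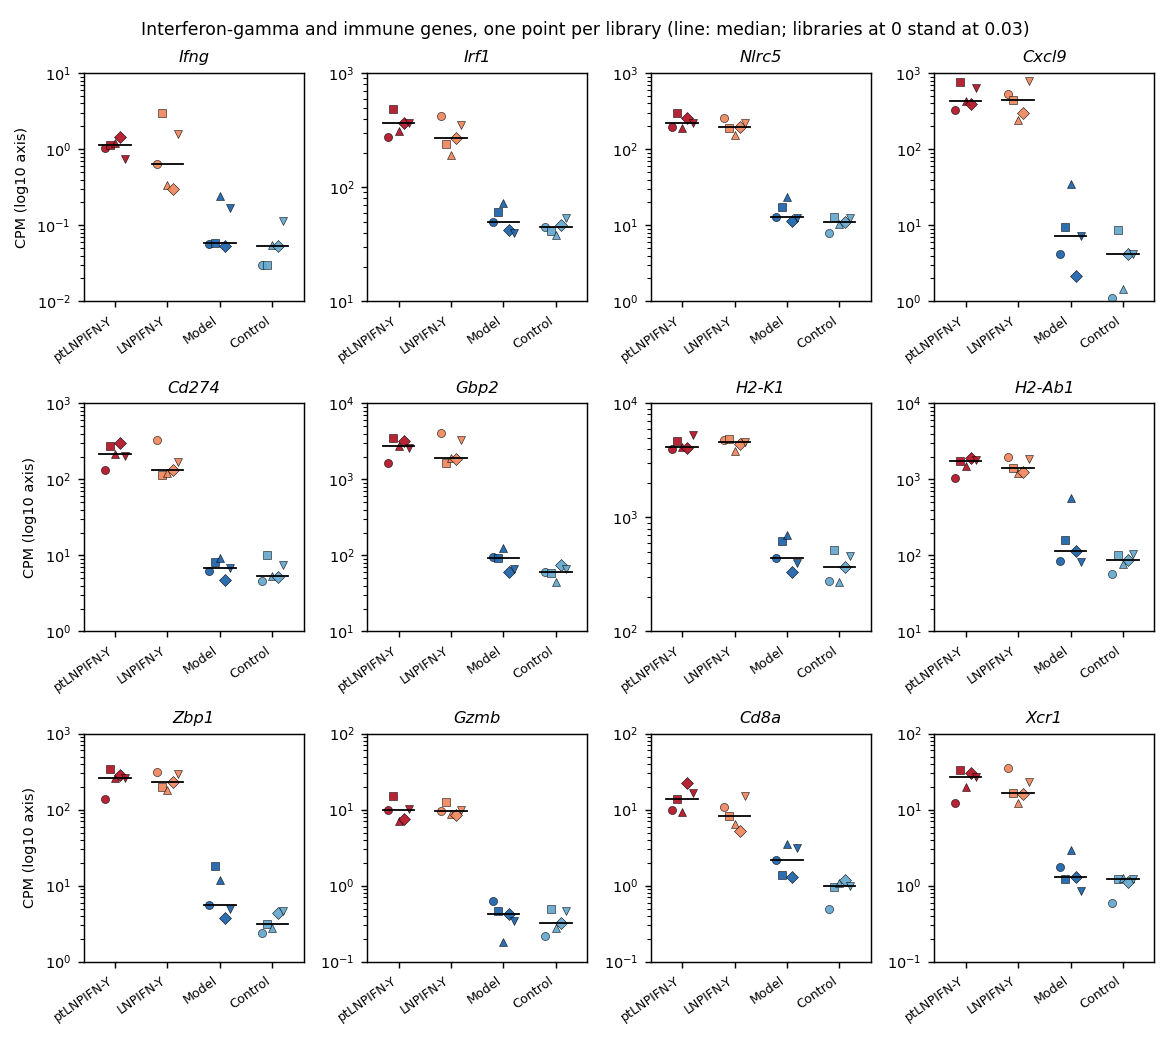
Levels of 12 interferon-γ and immune genes in CPM on a log10 axis, with 1 point per library, 5 libraries in each of ptLNPIFN-Y, LNPIFN-Y, Model and Control, and a line at the group median. For all 12 genes the 5 ptLNPIFN-Y libraries lie above the 5 Model libraries, and libraries without a count are drawn at the floor given in the title.

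Genes of IFN-γ signalling were higher in ptLNPIFN-Y, with 13 of 19 tested members past the test upward, 0 downward and a median log2 fold change of 2.30. Ifng itself, at chr10:118441046-118445894, had 1.05, 1.13, 1.21, 1.45 and 0.737 CPM in ptLNPIFN-Y libraries 1 to 5, against 0.0569, 0.0581, 0.243, 0.0537 and 0.17 CPM in Model (log2 fold change 3.19 ± 0.70 (SE), adjusted p = 0.00613). All ptLNPIFN-Y values were above all Model values, on 89 counts in ptLNPIFN-Y and 10 counts in Model. These counts do not tell Ifng transcripts of the host from mRNA carried by the particle. Irf1, at chr11:53770014-53778374, had 275, 481, 312, 365 and 367 CPM in ptLNPIFN-Y and 50, 61.2, 73.3, 42.2 and 40.1 CPM in Model (log2 fold change 2.75 ± 0.22 (SE), adjusted p = 1.44e-07). That is a 6.75-fold difference with no overlap, in a gene for which the window shown above holds a GAS.

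Stat2, a transcription factor of type I interferon signalling, rose with a log2 fold change of 2.36 ± 0.15 (SE), and a change written below as a number alone is a log2 fold change, with its SE after ±. Irf8, a myeloid transcription factor chosen after its values were seen, rose by 2.30 ± 0.23. Batf2, a factor that pairs with Irf1 in macrophages, had 23.2, 48.4, 33.8, 33.9 and 39.5 CPM in ptLNPIFN-Y and 0.91, 2.15, 2.97, 1.02 and 0.566 CPM in Model (log2 fold change 4.55 ± 0.40 (SE), adjusted p = 3.58e-07). The 5 ptLNPIFN-Y values all lay above the Model values, and the largest fold change of the list was that of Batf2. Socs1, a feedback inhibitor of the Jak kinases, rose with 19.4, 48.8, 23.4, 35.8 and 27.1 CPM in ptLNPIFN-Y, against 3.24, 6.97, 5.1, 4.13 and 3.39 CPM in Model (log2 fold change 2.76 ± 0.34 (SE), adjusted p = 2.39e-05).

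The transactivators of antigen presentation stood among the higher genes. Nlrc5, the transactivator of MHC class I genes, had 196, 296, 193, 257 and 222 CPM in ptLNPIFN-Y and 13, 17.5, 23.9, 11.4 and 12.3 CPM in Model (log2 fold change 3.90 ± 0.22 (SE), adjusted p = 4.38e-09). Ciita, that of MHC class II genes, had 105, 278, 322, 436 and 215 CPM in ptLNPIFN-Y and 9.67, 16.3, 66.5, 9.6 and 8.43 CPM in Model (log2 fold change 3.62 ± 0.55 (SE), adjusted p = 0.00024). For Nlrc5 and Ciita no Model library reached the lowest ptLNPIFN-Y library. Model library 3 stood apart for Ciita, and the log2 fold change was 4.62 without it.

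All 18 tested interferon-inducible GTPases rose, against 6.05% of all genes, with a median log2 fold change of 4.37 and no overlap between groups for any of them. These proteins, the guanylate-binding (Gbp) and immunity-related families, attack membranes around intracellular pathogens. Gbp2, at chr3:142620663-142638008, had 1623, 3501, 2777, 3176 and 2606 CPM in ptLNPIFN-Y and 95.2, 92.6, 124, 61.3 and 65.9 CPM in Model (log2 fold change 4.96 ± 0.31 (SE), adjusted p = 1.07e-08), a 31.2-fold difference, while Control averaged 61.1 ± 11 CPM (SD, n = 5). Gbp10 had 685, 1221, 609, 776 and 1260 CPM in ptLNPIFN-Y and 2.5, 3.6, 6.07, 1.82 and 3.45 CPM in Model (log2 fold change 8.03 ± 0.51 (SE), adjusted p = 1.07e-08). In these 2 genes the lowest ptLNPIFN-Y library was far above the highest Model library. The range over the list ran down to 2.50 for Gbp8, whose Model libraries were uneven, with 179, 406, 398, 358 and 309 CPM in ptLNPIFN-Y and 5.35, 128, 60.3, 50.3 and 46.5 CPM in Model (adjusted p = 0.00544). Gbp2b, Gbp6, Gbp5, Iigp1, Igtp, Tgtp2 and Tgtp1 had log2 fold changes of 6.36, 4.87, 4.93, 5.34, 5.10, 4.86 and 4.49. Reads of near-identical copies can be split between Gbp2b, Gbp6, Gbp10 and their relatives and between Tgtp1 and Tgtp2, so values of single members are uncertain.

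Antiviral genes better known from type I interferon moved in the same direction. Of 28 tested, 27 rose, 0 fell, and the median log2 fold change was 2.58. Ifit3, which binds viral RNA in complexes and whose window holds 2 ISREs, had 310, 796, 509, 746 and 416 CPM in ptLNPIFN-Y and 20, 17.7, 31.9, 11.9 and 16.1 CPM in Model (log2 fold change 4.83 ± 0.36 (SE), adjusted p = 4.34e-08). Zbp1, a sensor of left-handed nucleic acid that starts necroptosis, had 140, 342, 263, 284 and 260 CPM in ptLNPIFN-Y and 5.52, 18.2, 12, 3.7 and 4.86 CPM in Model (log2 fold change 4.86 ± 0.42 (SE), adjusted p = 2.37e-07). Neither gene overlapped between groups, and ptLNPIFN-Y library 1 was the lowest of its group for each. Irf7, the factor that amplifies type I interferon, rose by 3.61 ± 0.30 (SE), and Rsad2, the antiviral enzyme viperin, rose by 3.75 ± 0.29. The member that did not pass was Isg20, an RNA exonuclease, with 16.1, 31.4, 51.2, 32.1 and 37.3 CPM in ptLNPIFN-Y and 11.7, 30.4, 10.8, 15.5 and 50.6 CPM in Model (log2 fold change 0.50, adjusted p = 0.567).

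A list of ubiquitin-related, PARP, Schlafen and apolipoprotein L genes was likewise higher, with 24 of 25 members past the test upward and a median of 2.43. Ubd (FAT10), a ubiquitin-like protein that marks proteins for degradation, at chr17:37193892-37196101, had 72.2, 89.8, 40.1, 56.7 and 218 CPM in ptLNPIFN-Y and 0.227, 0.291, 0.85, 0.161 and 0.17 CPM in Model (log2 fold change 8.12 ± 0.66 (SE), adjusted p = 1.46e-07). The groups were far apart, with library 5 the highest of ptLNPIFN-Y, and the log2 fold change was 8.78 without Model library 3. Apol11b and Apol11a, apolipoprotein L genes, rose by 6.29 ± 0.41 and 5.70 ± 0.49. Dtx3l and Parp9, which form a ubiquitin ligase complex, rose by 2.44 ± 0.20 and 2.43 ± 0.20. Slfn4, a myeloid Schlafen gene, did not pass (log2 fold change 0.55, adjusted p = 0.385). Of 20 sensors of RNA and DNA, 11 rose, against 6.05% of all genes, 0 fell, and the median was 1.40. Ifi211, a DNA sensor of the AIM2-like family, rose by 3.08 ± 0.44, and Tlr9, the endosomal receptor for unmethylated DNA, rose by 2.85 ± 0.38.

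**Figure D2:**
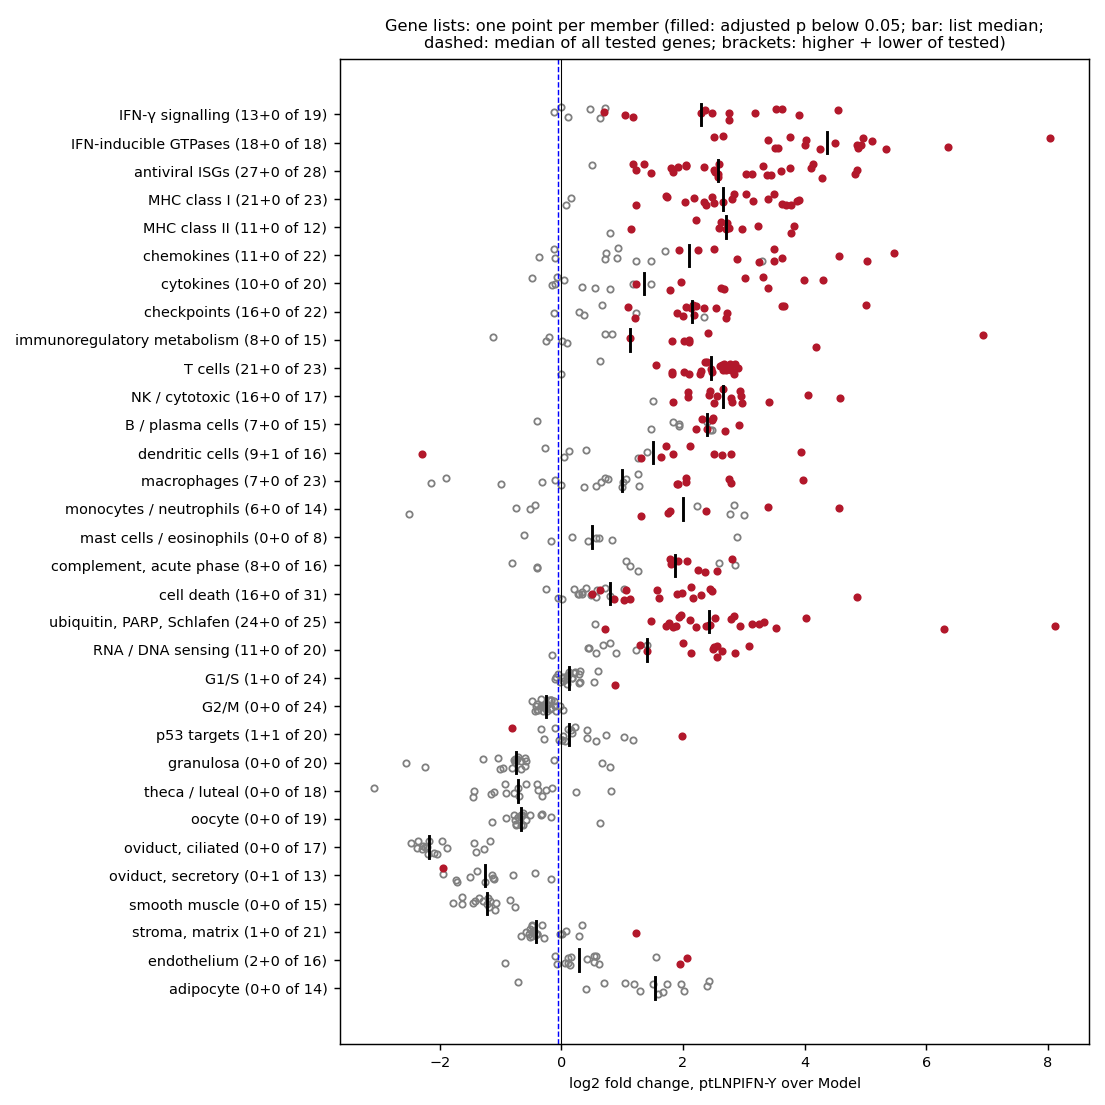
Log2 fold change of ptLNPIFN-Y over Model for the tested members of 32 gene lists, with 1 point per gene, filled where the adjusted p is under 0.05, a bar at the list median and a dashed line at the median of all tested genes. Medians of immune lists lie to the right of 0, that of GTPases furthest at 4.37, and medians of granulosa, theca and luteal, oocyte, oviduct and smooth muscle lists lie to the left with nearly all points open.

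Antigen presentation by MHC class I rose in 21 of 23 tested members, with 0 lower and a median log2 fold change of 2.66. H2-K1, a class I heavy chain that shows peptides to CD8+ T cells, had 4023, 4678, 4139, 4107 and 5248 CPM in ptLNPIFN-Y and 441, 626, 705, 331 and 398 CPM in Model (log2 fold change 3.15 ± 0.22 (SE), adjusted p = 2.9e-08). B2m, the light chain of class I molecules, had 3851, 5342, 4598, 4995 and 6078 CPM in ptLNPIFN-Y and 546, 675, 1036, 383 and 412 CPM in Model (log2 fold change 3.03 ± 0.29 (SE), adjusted p = 1.07e-06). The groups were apart for these genes, with an 8.87-fold difference for H2-K1, which averaged 377 ± 110 CPM in Control (SD, n = 5). Tap1, a subunit of the peptide transporter into the endoplasmic reticulum, had 366, 585, 487, 553 and 522 CPM in ptLNPIFN-Y and 35.1, 37.4, 62.1, 26.4 and 33.5 CPM in Model (log2 fold change 3.69 ± 0.22 (SE), adjusted p = 8.02e-09). H2-Q4, a non-classical class I gene, rose by 3.39 ± 0.18, though class I genes are alike in sequence and their counts can be split. The members that did not pass were the general chaperones Calr and Pdia3, with log2 fold changes of 0.15 and 0.08, the second of which was -0.05 with library size alone.

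MHC class II genes, which present peptides to CD4+ T cells, rose in 11 of 12 tested members with a median of 2.71. H2-Ab1 had 1033, 1751, 1524, 1894 and 1780 CPM in ptLNPIFN-Y and 85.6, 158, 576, 114 and 83.3 CPM in Model (log2 fold change 2.97 ± 0.45 (SE), adjusted p = 0.000235). H2-Aa had 1274, 2323, 2037, 2997 and 2469 CPM in ptLNPIFN-Y and 135, 248, 1031, 173 and 125 CPM in Model (log2 fold change 2.70 ± 0.51 (SE), adjusted p = 0.00186). Model library 3 was several times above the rest of its group for H2-Ab1 and H2-Aa, yet below every ptLNPIFN-Y library. Without Model library 3 the log2 fold changes were 3.85 for H2-Ab1, 3.70 for H2-Aa and 4.53, against 3.83 with it, for H2-DMb2, a peptide exchange factor. H2-Ob, a B cell inhibitor of that exchange, did not pass, with 4.73, 11.7, 16.7, 31.9 and 18 CPM in ptLNPIFN-Y and 3.18, 8.25, 4.92, 7.19 and 24.2 CPM in Model (adjusted p = 0.423). Levels of ptLNPIFN-Y and Model overlapped for it.

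Of 22 chemokine genes 11 rose and none fell, with a median of 2.09. Of 20 cytokine and receptor genes 10 rose and none fell, with a median of 1.35. Each share stands against 6.05% of all genes. Cxcl9, at chr5:92321331-92328079, a ligand of Cxcr3 that draws activated T cells, had 325, 772, 429, 389 and 649 CPM in ptLNPIFN-Y and 4.15, 9.59, 35.1, 2.15 and 7.13 CPM in Model (log2 fold change 5.46 ± 0.74 (SE), adjusted p = 6.67e-05). Cxcl10, a further Cxcr3 ligand, had 80.5, 246, 166, 130 and 113 CPM in ptLNPIFN-Y and 5.46, 4.82, 9.65, 3.22 and 8.03 CPM in Model (log2 fold change 4.56 ± 0.59 (SE), adjusted p = 3.75e-05). Neither overlapped, and without Model library 3 the log2 fold change of Cxcl9 was 6.48. Cxcl9 averaged 3.88 ± 3 CPM in Control (SD, n = 5). Ccl19, a ligand of Ccr7 that guides T cells and dendritic cells to lymphoid tissue, had 8.61, 5.83, 1.39, 30.2 and 25.9 CPM in ptLNPIFN-Y and 0.796, 0.291, 0.425, 0.483 and 0.17 CPM in Model (log2 fold change 5.03 ± 0.71 (SE), adjusted p = 0.000114). The ptLNPIFN-Y libraries differed widely for Ccl19, with libraries 4 and 5 the highest and library 3 the lowest. Ccl5, a chemokine of T cells and macrophages, rose by 3.49 ± 0.47. Cxcl14, made by epithelium and fibroblasts, was the lowest of the chemokines and did not pass (-0.37, adjusted p = 0.433). Without Model library 5, 7 chemokines passed upward.

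Among cytokine genes, Il12rb1, a subunit of the receptors for Il12 and Il23, had 17.5, 37.5, 26.6, 28.2 and 31.8 CPM in ptLNPIFN-Y and 0.796, 0.988, 3.28, 0.805 and 1.3 CPM in Model (log2 fold change 4.30 ± 0.48 (SE), adjusted p = 6.28e-06). Il18bp, the soluble inhibitor of Il18, had 73.5, 140, 107, 92 and 113 CPM in ptLNPIFN-Y and 6.71, 19.1, 7.77, 9.07 and 7.41 CPM in Model (log2 fold change 3.39 ± 0.25 (SE), adjusted p = 4.34e-08). The ptLNPIFN-Y libraries lay above the Model libraries in each. Il15, which sustains NK and memory CD8+ T cells, rose by 1.78 ± 0.25, and Tnfsf13b (BAFF), which sustains B cells, rose by 2.67 ± 0.37. Tnf and Il27, chosen after their values were seen, rose by 3.31 ± 0.57 and 3.98 ± 0.70, and by 3.98 and 4.93 without Model library 3. Il17d was the lowest member and did not pass (-0.49, adjusted p = 0.369).

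Markers of T cells were higher in 21 of 23 tested genes, against 6.05% of all genes, with a median log2 fold change of 2.46. Cd8a, the coreceptor of cytotoxic T cells, had 9.78, 13.9, 9.34, 22.3 and 16.7 CPM in ptLNPIFN-Y and 2.16, 1.39, 3.52, 1.29 and 3.17 CPM in Model (log2 fold change 2.64 ± 0.37 (SE), adjusted p = 9.68e-05). Cd4, the coreceptor of helper T cells, had 5.59, 7.65, 9.22, 20.7 and 17.8 CPM in ptLNPIFN-Y and 2.22, 2.79, 3.64, 1.99 and 1.19 CPM in Model (log2 fold change 2.36 ± 0.39 (SE), adjusted p = 0.000574). Libraries 4 and 5 of ptLNPIFN-Y were the highest of all 10 for Cd8a and Cd4, and the groups did not overlap. Cd8a averaged 0.944 ± 0.269 CPM in Control (SD, n = 5). Cd3g, a chain of the T cell receptor complex, rose by 2.86 ± 0.37, Lck, its kinase, by 2.10 ± 0.27, and Cxcr3, the receptor for Cxcl9 and Cxcl10, by 2.28 ± 0.28. Thy1, which fibroblasts also express, did not pass (log2 fold change 0.63, adjusted p = 0.0662), though it did without Model library 3 (0.0353) and without ptLNPIFN-Y library 1 (0.0278). The other member that did not pass was Tcf7, a T cell transcription factor (log2 fold change -0.0, adjusted p = 0.996).

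NK and cytotoxic genes rose in 16 of 17 tested members, against 6.05% of all genes, with a list median of 2.65. Granzyme B, the Gzmb product, is a protease of killer cell granules. Gzmb had 9.78, 14.9, 7.17, 7.59 and 10.3 CPM in ptLNPIFN-Y and 0.626, 0.465, 0.182, 0.429 and 0.339 CPM in Model (log2 fold change 4.58 ± 0.32 (SE), adjusted p = 2.47e-08), a 23.9-fold difference. Ncr1, the receptor NKp46 of NK cells, had 3.32, 2.57, 0.784, 2.85 and 3.35 CPM in ptLNPIFN-Y and 0.455, 0.291, 0.364, 0.429 and 0.113 CPM in Model (log2 fold change 2.93 ± 0.44 (SE), adjusted p = 0.000225). In neither gene did the groups overlap, and library 3 was the lowest of ptLNPIFN-Y for each, while Gzmb averaged 0.352 ± 0.116 CPM in Control (SD, n = 5). Prf1, the pore-forming perforin, rose by 2.95 ± 0.36, and Klrk1, the activating receptor NKG2D, by 4.06 ± 0.38. Klra8, an NK receptor of a family of close copies, did not pass (1.5, adjusted p = 0.0629). It passed without Model library 2 (0.0123) and without ptLNPIFN-Y library 2 (0.044).

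B cell and plasma cell genes were less uniform, with 7 of 15 past the test upward, against 6.05% of all genes, 0 downward and a median of 2.40. Cd79b, a B cell receptor chain, had 3.2, 6.33, 2.95, 31 and 14.2 CPM in ptLNPIFN-Y and 2.05, 5, 2.37, 1.39 and 0.792 CPM in Model (log2 fold change 2.31 ± 0.60 (SE), adjusted p = 0.022). Libraries 4 and 5 of ptLNPIFN-Y were the highest, and the groups overlapped, since Model library 2 lay above ptLNPIFN-Y libraries 1 and 3. Without ptLNPIFN-Y library 4 the log2 fold change of Cd79b was 1.54 (adjusted p = 0.107), and that of Cd22, an inhibitory lectin, was 1.79 against 2.40. The adjusted p of Cd79b was 0.0544, 0.0728 and 0.0629 without Model libraries 1, 4 and 5 and 0.0546 without ptLNPIFN-Y library 5. Only 3 genes of the list passed without ptLNPIFN-Y library 4 or 5 or Model library 1, 4 or 5, while 12 passed without ptLNPIFN-Y library 1 and 11 without library 3. In ptLNPIFN-Y libraries 4 and 5 the mean of the granulosa list was -1.11 and -2.96 on the centred log2 scale, against a range from -0.60 to 1.28 in Model. With tissue covariates none of the B cell genes passed, and Cd79b stood at 1.33 (adjusted p = 0.298). With the 2 groups alone 1 passed, and in DESeq2 12 passed.

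Checkpoint and costimulatory genes rose in 16 of 22 tested members, against 6.05% of all genes, with none lower and a median of 2.15. Cd274, at chr19:29362107-29388095, which encodes the ligand PD-L1 that restrains T cells, had 132, 279, 213, 303 and 202 CPM in ptLNPIFN-Y and 6.31, 8.14, 9.17, 4.77 and 6.9 CPM in Model (log2 fold change 5.0 ± 0.36 (SE), adjusted p = 2.9e-08). That is a 32-fold difference, and the groups were far apart. Pdcd1, which encodes its receptor PD-1, had 3.07, 6.58, 5.91, 9.61 and 4.89 CPM in ptLNPIFN-Y and 6.94, 1.1, 5.22, 3.27 and 2.49 CPM in Model (log2 fold change 0.66 ± 0.49 (SE), adjusted p = 0.418). The Pdcd1 groups overlapped, and the test did not show a difference. Lag3, an inhibitory receptor for MHC class II, rose by 2.13 ± 0.27, Cd40, a receptor for T cell help, by 2.70 ± 0.39, and Lgals9, a lectin ligand of Havcr2, by 2.04 ± 0.28. Among genes chosen after their values were seen, Pdcd1lg2 (PD-L2) rose by 3.66 ± 0.69, Ctla4, an inhibitory receptor of T cells, by 3.62 ± 0.72 and Havcr2 (TIM-3) by 2.18 ± 0.55. Without Model library 3 Ctla4 stood at 4.20 and Havcr2 at 2.90, and Havcr2 did not pass without Model library 1, 2, 4 or 5 or ptLNPIFN-Y library 4 (adjusted p from 0.0515 to 0.0639). Tigit was the lowest member, at 150, 144, 149, 154 and 126 CPM in ptLNPIFN-Y and 201, 133, 160, 167 and 132 CPM in Model (log2 fold change -0.13, adjusted p = 0.59). These levels lay far above those of Cd8a and Cd4 in every library, and which cells the Tigit counts come from was not tested.

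Enzymes of immunoregulatory metabolism rose in 8 of 15 members, against 6.05% of all genes, with a median of 1.13, or 1.86 without Model library 2. Ido1, which breaks down tryptophan, had 4.36, 5.33, 14.5, 2.85 and 12.2 CPM in ptLNPIFN-Y and 0.0569, 0, 0, 0 and 0.226 CPM in Model (log2 fold change 6.93 ± 0.98 (SE), adjusted p = 0.000112). It was nearly absent from Model, on 5 counts over the 5 libraries, against 623 counts in ptLNPIFN-Y, and the fitted log2 fold change was 8.51 without Model library 5. Wars, the tryptophan tRNA synthetase, had 162, 295, 257, 240 and 254 CPM in ptLNPIFN-Y and 53.2, 59.4, 48.1, 57.5 and 64.7 CPM in Model (log2 fold change 2.09 ± 0.16 (SE), adjusted p = 9.27e-08). Acod1, which makes itaconate in macrophages, rose by 4.18 ± 0.78, and Cyba, a subunit of the phagocyte oxidase, by 1.13 ± 0.21. Arg2, the mitochondrial arginase, was the lowest member and did not pass (-1.12, adjusted p = 0.353).

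Dendritic cell genes rose in 9 of 16 tested members and fell in 1, against 6.05% and 0.948% of all genes, with a median of 1.51. Xcr1, a chemokine receptor of type 1 conventional dendritic cells, which cross-present antigen to CD8+ T cells, had 12.4, 33.7, 20, 30.5 and 27.2 CPM in ptLNPIFN-Y and 1.76, 1.22, 2.91, 1.29 and 0.849 CPM in Model (log2 fold change 3.94 ± 0.39 (SE), adjusted p = 1.46e-06). Clec9a, a receptor of the same cells for dead cells, had 32.1, 53.3, 32, 42.5 and 49.3 CPM in ptLNPIFN-Y and 7.51, 4.47, 6.5, 7.83 and 3.96 CPM in Model (log2 fold change 2.79 ± 0.23 (SE), adjusted p = 1.46e-07). Both were apart between groups, by 15.3-fold and 6.9-fold. Ly75, an endocytic receptor, rose by 2.11 ± 0.31, and Bst2 (tetherin), an antiviral protein that also marks plasmacytoid dendritic cells, by 1.84 ± 0.22. Bst2 is also counted in the antiviral list above. Siglech, a further marker of plasmacytoid dendritic cells, did not pass (0.04, adjusted p = 0.964). Cd209a, a lectin of monocyte-derived and type 2 dendritic cells, went the other way, with 1.35, 0.501, 0.241, 0.696 and 1.41 CPM in ptLNPIFN-Y and 3.01, 7.61, 3.82, 4.08 and 2.26 CPM in Model (log2 fold change -2.30 ± 0.53 (SE), adjusted p = 0.0091). All 5 ptLNPIFN-Y libraries were below all 5 Model libraries for Cd209a.

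Macrophage genes rose in 7 of 23 tested members, against 6.05% of all genes. None passed the test downward, against 0.948% of all genes, and the median was 1.00. Fcgr4, an activating receptor for IgG, had 59.8, 146, 59.2, 112 and 131 CPM in ptLNPIFN-Y and 4.89, 3.66, 14.2, 6.28 and 3.51 CPM in Model (log2 fold change 3.97 ± 0.58 (SE), adjusted p = 0.000161). Fcgr1, the high-affinity IgG receptor, rose by 2.75 ± 0.45, and C1qa, a chain of the complement starter C1q, by 2.05 ± 0.42. Adgre1 (F4/80), a general marker of mouse macrophages, had 39.9, 86.4, 39.7, 62.3 and 82.5 CPM in ptLNPIFN-Y and 23.9, 22.8, 52.6, 18.4 and 11.7 CPM in Model (log2 fold change 1.26 ± 0.41 (SE), adjusted p = 0.0774). Adgre1 overlapped between groups through Model library 3, and it passed without that library (log2 fold change 1.69, adjusted p = 0.0106). The log2 fold changes of 5 members were below 0, with Cbr2 (-2.15, adjusted p = 0.208), Cd5l (-1.90, 0.122), Marco (-1.0, 0.385), Trem2 (-0.32) and F13a1 (-0.10). Cd5l, a secreted scavenger protein of tissue macrophages, passed downward without ptLNPIFN-Y library 1 (-2.56, adjusted p = 0.0442). Of 14 monocyte and neutrophil genes 6 rose and 0 fell, with a median of 2.0, and 3 passed without Model library 4 or 5 or with tissue covariates. Ly6c2, a marker of inflammatory monocytes, rose by 4.57 ± 0.57, or 5.20 without Model library 3, and Ms4a4c, a myeloid membrane protein, by 3.39 ± 0.51. Plac8 rose by 2.37 ± 0.52, and by 3.35 without Model library 2, which was the highest of Model. Mmp8, a neutrophil collagenase, was the lowest member and did not pass (-2.50, adjusted p = 0.253).

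Complement and acute phase genes rose in 8 of 16 tested members, against 6.05% of all genes, with a median of 1.86. The number was 5 without Model library 4 or 5 or ptLNPIFN-Y library 5 or with tissue covariates. C4b, a component of the classical pathway, had 806, 1732, 525, 694 and 1641 CPM in ptLNPIFN-Y and 186, 211, 227, 82.1 and 68.2 CPM in Model (log2 fold change 2.80 ± 0.42 (SE), adjusted p = 0.000206). Serping1, the inhibitor of that pathway's proteases, had 874, 1761, 977, 925 and 1334 CPM in ptLNPIFN-Y and 212, 275, 227, 183 and 98 CPM in Model (log2 fold change 2.56 ± 0.26 (SE), adjusted p = 2.33e-06). The groups did not overlap for C4b or Serping1. C1ra, a protease of the same pathway, rose by 1.92 ± 0.27. Saa3, an acute phase protein, had 40.2, 139, 27.1, 10.2 and 42 CPM in ptLNPIFN-Y and 8.47, 7.15, 6.37, 1.93 and 11.8 CPM in Model and did not pass (log2 fold change 2.85, adjusted p = 0.0791). Lcn2, an iron-scavenging protein of neutrophils and epithelium, did not pass either, with single high libraries in each group (4.06, 17.9, 379, 8.73 and 15 CPM in ptLNPIFN-Y and 4.38, 647, 23, 19 and 53.1 CPM in Model). Its log2 fold change was -0.81 and turned to 1.77 without Model library 2.

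Of 31 tested genes of cell death, 16 rose, against 6.05% of all genes, and 0 fell, with a median of 0.79. Mlkl, the executor of necroptosis downstream of Zbp1, had 50.8, 92.4, 58.4, 71.8 and 83.2 CPM in ptLNPIFN-Y and 16.7, 13.6, 20.3, 6.71 and 8.09 CPM in Model (log2 fold change 2.45 ± 0.31 (SE), adjusted p = 3.36e-05). The lowest ptLNPIFN-Y library was above the highest Model library. Xaf1, a proapoptotic interferon target, rose by 2.48 ± 0.28, and Casp12, a caspase of the inflammatory group, by 1.90 ± 0.26. Fas, a death receptor and p53 target, had 22.2, 21.9, 10.1, 17.3 and 38.1 CPM in ptLNPIFN-Y and 6.26, 6.74, 5.4, 4.29 and 5.09 CPM in Model (log2 fold change 1.98 ± 0.37 (SE), adjusted p = 0.00175). Casp1, Casp4 and Gsdmd, which carry out pyroptosis and were chosen after their values were seen, rose by 2.16 ± 0.47, 2.29 ± 0.39 and 1.57 ± 0.40. Gsdmd stood at 2.17 without Model library 3, and it did not pass without Model library 1, 2, 4 or 5 or ptLNPIFN-Y library 4 (adjusted p from 0.0556 to 0.0738).

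Genes of the cell cycle gave little difference beyond the spread of the libraries. Of 24 G1/S genes 1 rose, against 6.05% of all genes, with a median of 0.12, and of 24 G2/M genes none passed in either direction, with a median of -0.25 and 23 members below 0. The G1/S gene was Ccne1 (cyclin E1), which had 6.15, 6.83, 6.33, 8.98 and 6.5 CPM in ptLNPIFN-Y and 4.04, 4.24, 4.19, 3.81 and 2.55 CPM in Model (log2 fold change 0.88 ± 0.20 (SE), adjusted p = 0.00741). Without Model library 3, 4 G1/S genes rose and the median was 0.24. Mki67, a nuclear protein of cycling cells, had 89.7, 91.3, 102, 111 and 67.4 CPM in ptLNPIFN-Y and 142, 91.8, 151, 86.8 and 85.9 CPM in Model (log2 fold change -0.27 ± 0.25 (SE), adjusted p = 0.507). Its values overlapped between groups. Of 20 p53 targets, Fas rose and Gadd45a, a growth arrest gene, fell, with 42.2, 49.9, 65.8, 55.5 and 61.9 CPM in ptLNPIFN-Y and 68.8, 147, 76.8, 106 and 86.8 CPM in Model (log2 fold change -0.82 ± 0.23 (SE), adjusted p = 0.0318). Gadd45a passed without Model library 1 or 3 or ptLNPIFN-Y library 3 and not without any of the other 7, where the adjusted p reached 0.103, nor with tissue covariates (0.0542). Cdkn1a (p21), the cell cycle inhibitor, did not pass (0.18, adjusted p = 0.552). Of 19 immediate early genes 1 passed, Atf3, a stress factor, with 15.2, 28.8, 15.7, 16.4 and 21 CPM in ptLNPIFN-Y and 8.13, 9.59, 8.8, 6.55 and 5.2 CPM in Model (log2 fold change 1.34 ± 0.33 (SE), adjusted p = 0.0159). The adjusted p of Atf3 was 0.0527, 0.0547 and 0.0521 without Model library 4, Model library 5 and ptLNPIFN-Y library 2, and 0.0675 with tissue covariates. The 1 gene that rose among 24 G1/S genes, among 20 p53 targets and among 19 immediate early genes is no larger a share than the 6.05% of all genes. The 1 lower gene among the 20 p53 targets stands against 0.948% of all genes.

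**Figure D3:**
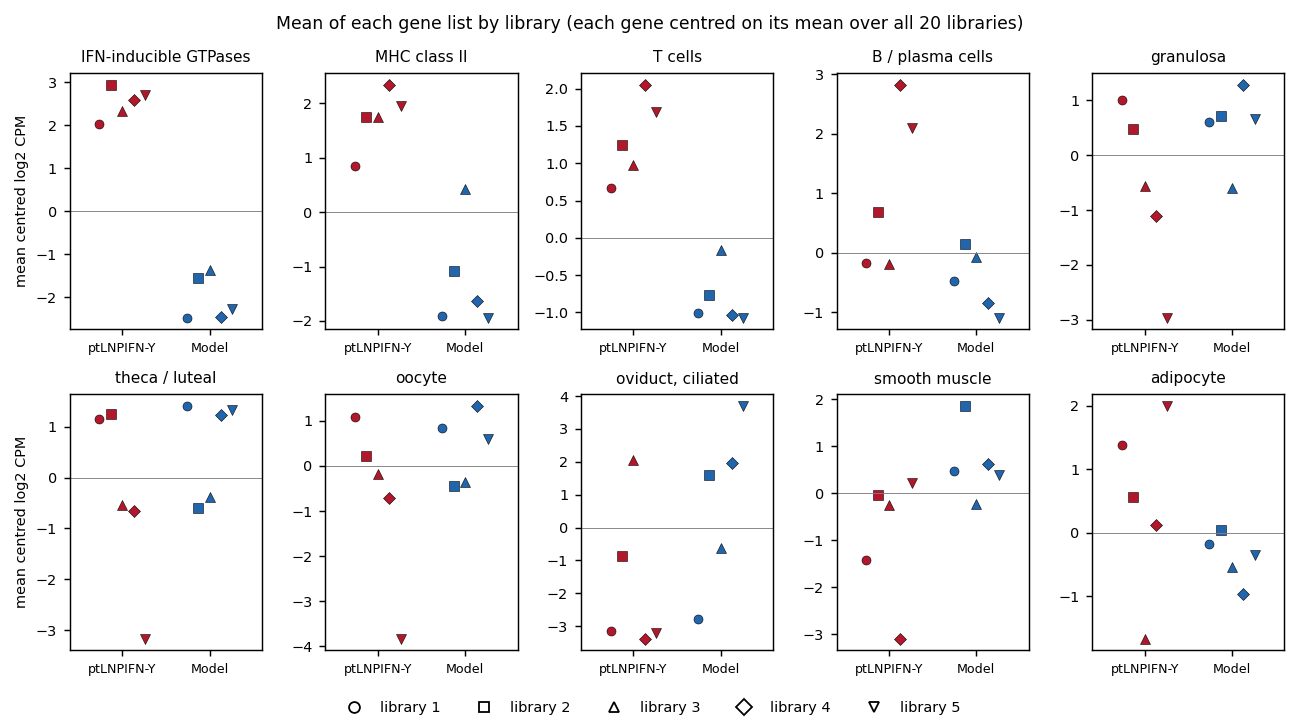
Mean centred log2 CPM of 10 gene lists in each library, with 5 ptLNPIFN-Y libraries to the left of 5 Model libraries and 1 symbol per library number. GTPase and MHC class II means are apart between groups, while granulosa, theca and luteal, and oocyte means overlap, with ptLNPIFN-Y library 5 the lowest of the 10.

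Lists of ovarian, oviduct, smooth muscle, stromal and mesothelial cells had medians below 0 with almost no member past the test. The adipocyte and endothelial lists had medians above 0, at 1.54 and 0.29. Granulosa, theca and luteal, and oocyte genes had medians of -0.74, -0.71 and -0.66, and none of their 20, 18 and 19 tested members passed in either direction. With 1 library left out the granulosa median ran from -1.52 without ptLNPIFN-Y library 1 to -0.46 without ptLNPIFN-Y library 5. The theca and luteal median ran from -1.12 without ptLNPIFN-Y library 2 to -0.39 without ptLNPIFN-Y library 5, and the oocyte median from -1.40 without ptLNPIFN-Y library 1 to -0.32 without Model library 4. Without Model library 3, Amhr2 (log2 fold change 2.17, adjusted p = 0.00474) and Kctd14 (1.44, 0.0254) of the granulosa list and Sohlh1 (3.67, 0.0162) of the oocyte list passed upward. Fshr, the receptor for follicle-stimulating hormone on granulosa cells, had 38.9, 7.15, 3.32, 1.58 and 0 CPM in ptLNPIFN-Y and 11.8, 14.1, 2.67, 36.3 and 12.2 CPM in Model (log2 fold change -0.60, adjusted p = 0.773). It stood at -2.35 (adjusted p = 0.233) without ptLNPIFN-Y library 1, at -0.03 without Model library 4 and at 0.19 with tissue covariates in the fit. Fshr is itself in the granulosa list that forms a covariate, so the 0.19 is no separate check of it. Levels ranged so widely within each group that no difference was detectable. Ciliated oviduct genes had a median of -2.18, all 17 below 0 and none past the test. Foxj1, the master factor of motile cilia, had 0.0615, 6.46, 79.9, 0.316 and 0.402 CPM in ptLNPIFN-Y and 0.455, 52.1, 8.86, 68.1 and 213 CPM in Model (log2 fold change -1.97 ± 1.58 (SE), adjusted p = 0.454). It was near 0 in ptLNPIFN-Y libraries 1, 4 and 5 and in Model library 1, and the list median was -0.91 without Model library 5 and -4.66 without ptLNPIFN-Y library 3.

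Smooth muscle genes were below 0 in 15 of 15 members, with a median of -1.22 and none past the test. Acta2, smooth muscle actin, had 237, 408, 302, 37.5 and 546 CPM in ptLNPIFN-Y and 853, 1769, 376, 792 and 397 CPM in Model (log2 fold change -1.45 ± 0.51 (SE), adjusted p = 0.097). Library 4 of ptLNPIFN-Y was by far the lowest, and Acta2 passed without Model library 3 (log2 fold change -1.63, adjusted p = 0.044), as did 3 further members. In DESeq2 6 smooth muscle genes were lower at an adjusted p under 0.05. The secretory oviduct list had 1 of 13 members past the test downward, against 0.948% of all genes. It was Klk1, a kallikrein protease (log2 fold change -1.95 ± 0.56 (SE), adjusted p = 0.0412). Klk1 was at -1.29 without Model library 2, and of the 10 fits that left out a library it passed in the 3 without Model library 1, Model library 3 or ptLNPIFN-Y library 3. With tissue covariates it did not pass (0.291). Adipocyte genes had a median of 1.54 with none of 14 past the test in edgeR and 4 higher in DESeq2, and Adipoq, the hormone adiponectin, had 988, 614, 76.1, 312 and 1819 CPM in ptLNPIFN-Y and 338, 242, 215, 119 and 231 CPM in Model (log2 fold change 1.73 ± 0.76 (SE), adjusted p = 0.188). Of 21 stromal and matrix genes 1 rose, no larger a share than the 6.05% of all genes. It was Mmp13, a collagenase (log2 fold change 1.22 ± 0.35 (SE), adjusted p = 0.0414), whose groups overlapped and which passed in 4 of those 10 fits. Mmp13 did not pass with library size alone, upper-quartile scaling, no low-count filter or the 2 groups alone. Msln (mesothelin), a surface protein of mesothelium and of many ovarian tumours, had 48.1, 154, 143, 138 and 46.4 CPM in ptLNPIFN-Y and 49.1, 78.6, 179, 48.6 and 54.8 CPM in Model (log2 fold change 0.37 ± 0.51 (SE), adjusted p = 0.677). The Msln groups overlapped and did not separate the labels.

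Endothelial genes had a median of 0.29, which was 0.05 without ptLNPIFN-Y library 5 and 0.50 without ptLNPIFN-Y library 3. Against 6.05% of all genes, 2 of 16 rose. They were Vcam1 and Icam1, adhesion molecules through which leukocytes leave vessels. Vcam1 had 101, 160, 64.7, 97 and 126 CPM in ptLNPIFN-Y and 28.1, 25.1, 30.7, 31.2 and 15.3 CPM in Model (log2 fold change 2.07 ± 0.37 (SE), adjusted p = 0.00122), and Icam1 rose by 1.95 ± 0.37. No Model library reached the lowest ptLNPIFN-Y library in these genes. The remaining 14 endothelial genes did not pass, and Ackr1, an atypical chemokine receptor of venules, did without ptLNPIFN-Y library 3 (log2 fold change 1.80, adjusted p = 0.0396).

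Genes lower in ptLNPIFN-Y numbered 149, and for most of them the change was below 2-fold. Among calls without overlap whose log2 CPM averaged 1 or more over the 20 libraries, a limit that leaves out low genes such as Cd209a, the 15 lowest were ranked. Of these, Fcrls, Fat3, Pcp4l1, Tiam2, Bag2 and Tpm1 passed under all 19 alternatives run for single genes, each library left out included. Fcrls, a scavenger receptor of resident macrophages and microglia, at chr3:87250736-87263765, had 1.97, 3.38, 0.663, 1.14 and 4.15 CPM in ptLNPIFN-Y and 16.6, 23.4, 32.7, 13.5 and 7.92 CPM in Model (log2 fold change -3.05 ± 0.73 (SE), adjusted p = 0.013). Tpm1, a tropomyosin of the contractile apparatus, at chr9:67022590-67049672, had 303, 383, 334, 219 and 342 CPM in ptLNPIFN-Y and 646, 826, 507, 553 and 450 CPM in Model (log2 fold change -0.92 ± 0.18 (SE), adjusted p = 0.00309). All ptLNPIFN-Y libraries lay below all Model libraries for Fcrls and Tpm1. Pcp4l1, a small protein related to the calmodulin regulator Pcp4, had 35.2, 31.2, 35, 29.2 and 35.2 CPM in ptLNPIFN-Y and 74.5, 118, 63.3, 70.3 and 60.8 CPM in Model (log2 fold change -1.22 ± 0.23 (SE), adjusted p = 0.00178). Fat3, an atypical cadherin, fell by 2.17 on the log2 scale, Tiam2, an activator of Rac, by 1.07, and Bag2, a cochaperone of Hsp70, by 0.93. Actn1, an actin crosslinker chosen after its values were seen, fell by 0.72.

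The other 9 of the 15 were Tnnt2, Cntfr, Bves, Ece2, Btbd11, Zkscan16, Adamts4, Psd and Tspan2, with log2 fold changes between -2.03 and -1.27. Ece2, a metalloprotease, kept its call with each of the 10 libraries left out. Adamts4, a matrix protease, kept it in 8 of 10 and lost it without Model library 2 (0.0543) or ptLNPIFN-Y library 4 (0.0549). Psd kept it in 6, Tspan2 and Zkscan16 in 5, Btbd11 and Cntfr in 4, and Bves and Tnnt2 in 3 of 10, with adjusted p up to 0.11. Tnnt2, cardiac troponin T, Bves, a muscle membrane protein, and Tpm1 are known from muscle. In ptLNPIFN-Y library 4, the lowest of its group for Tnnt2, Bves and Tpm1, the smooth muscle list mean was -3.10 on the centred log2 scale, against a Model range from -0.22 to 1.86. Without that library Tpm1 passed, as did Tnnt2 (adjusted p = 0.0499), and Bves did not (0.0776). With tissue covariates 6 of the 9 did not pass, with an adjusted p of 0.186 for Tnnt2, 0.142 for Bves, 0.116 for Btbd11, 0.151 for Cntfr, 0.157 for Psd and 0.151 for Zkscan16.

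**Figure D4:**
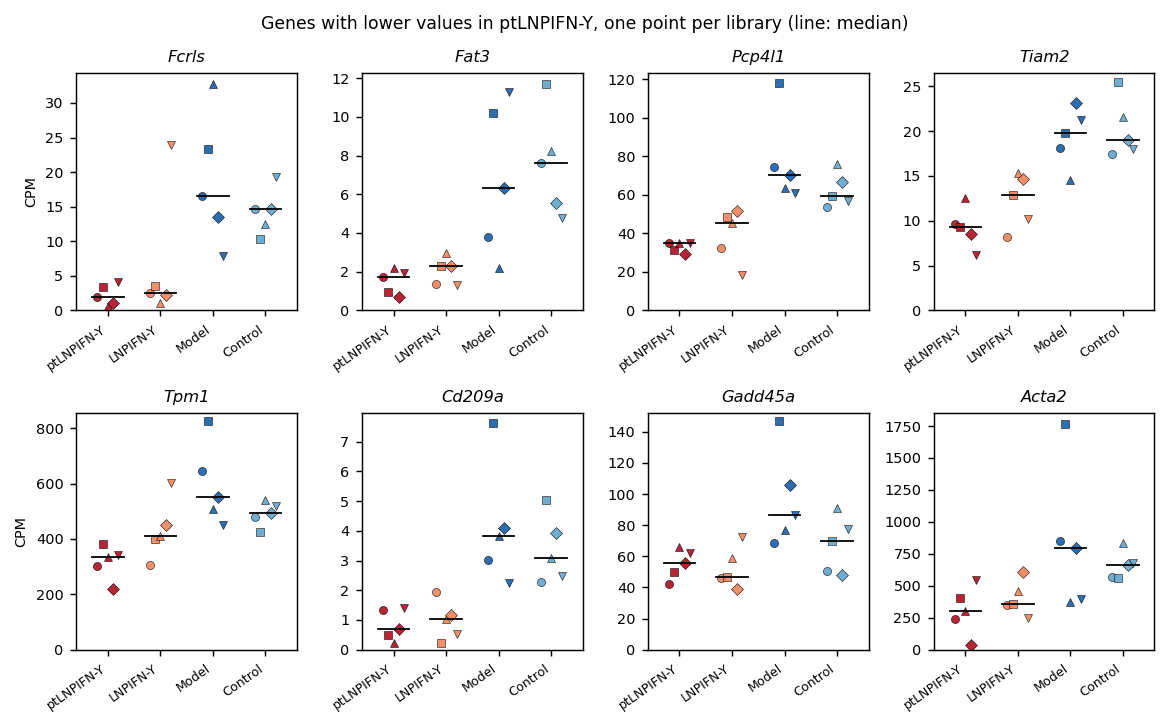
Levels in CPM of 8 genes with lower values in ptLNPIFN-Y, with 1 point per library in ptLNPIFN-Y, LNPIFN-Y, Model and Control and a line at the group median. Fcrls, Fat3, Pcp4l1, Tiam2, Tpm1, Cd209a and Gadd45a do not overlap between ptLNPIFN-Y and Model, while Acta2 does and did not pass the test.

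Whether the particle labelled with the targeting peptide differed from LNPIFN-Y was tested directly. No gene was higher and none lower at an adjusted p under 0.05 in edgeR, with a smallest adjusted p of 1.00, and DESeq2 gave 0 and 0 as well. At an unadjusted p under 0.05 there were 481 genes, while 5% of the tested genes is 786. Among the 1100 genes called against Model, the median size of the difference between ptLNPIFN-Y and LNPIFN-Y was 0.16 on the log2 scale. A p that misses the threshold does not show that the particles act alike, and the intervals below give the differences these libraries allow, unadjusted for the number of genes.

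Irf1 averaged 360 ± 77.9 CPM in ptLNPIFN-Y, 296 ± 92.1 CPM in LNPIFN-Y, 53.4 ± 13.9 CPM in Model and 44.9 ± 6.19 CPM in Control (SD, n = 5 each). Its difference of ptLNPIFN-Y minus LNPIFN-Y was 0.28, 95% interval -0.15 to 0.72 on the log2 scale. Cd274 averaged 226 ± 67.6 CPM in ptLNPIFN-Y, 174 ± 90.9 CPM in LNPIFN-Y, 7.06 ± 1.69 CPM in Model and 6.56 ± 2.29 CPM in Control, with a difference of 0.37, 95% interval -0.25 to 1.00. The means of the groups given particles differed by less than their own SDs. For H2-K1 the difference was -0.02, 95% interval -0.45 to 0.41, and for Gzmb it was 0.01, 95% interval -0.55 to 0.58, so that differences beyond 2-fold, a log2 value of 1, lay outside both intervals. Cxcl9 gave 0.15, 95% interval -1.12 to 1.43, and Ifng gave -0.08, 95% interval -1.33 to 1.16, intervals that take in 2-fold differences either way.

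Ubd had an interval above 0 before adjustment. It averaged 95.3 ± 70.9 CPM in ptLNPIFN-Y and 41.3 ± 16.9 CPM in LNPIFN-Y (log2 difference 1.21, 95% interval 0.23 to 2.18), with library 5 of ptLNPIFN-Y the highest. Its adjusted p was 1.00. Of the 38 lists, the median differences farthest from 0 were those of the adipocyte list at 1.11, the B and plasma cell list at 1.02, the cholesterol list at 0.57, the secretory oviduct list at 0.55 and the stromal and matrix list at -0.50. That of the T cell list was 0.40, that of the NK and cytotoxic list 0.37, that of the GTPase list 0.28 and that of MHC class I 0.03. No member of any list passed the test, and the median of all tested genes was -0.01. Ovarian content differed within these groups too, with granulosa list means of -2.96 in ptLNPIFN-Y library 5 and of -2.23 and -3.17 in LNPIFN-Y libraries 1 and 5.

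**Figure D5:**
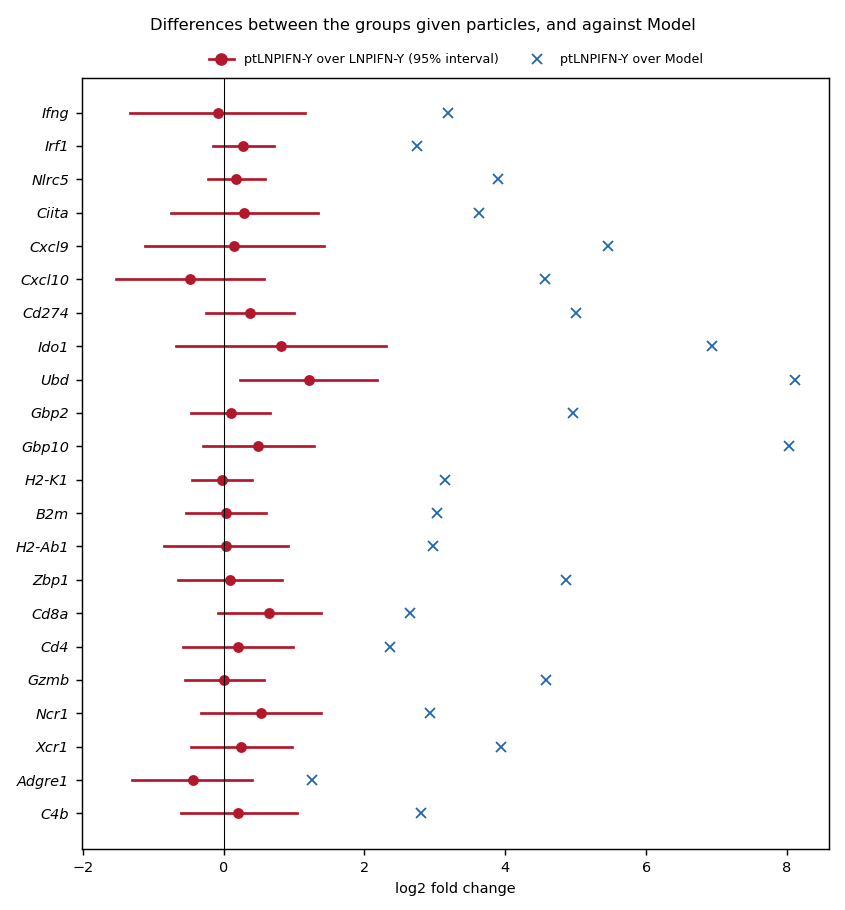
Log2 fold change of ptLNPIFN-Y over LNPIFN-Y with its 95% interval (circles and bars) and of ptLNPIFN-Y over Model (crosses) for 22 genes. The interval of Ubd lies above 0 and the others take in 0, and except for Adgre1 the crosses lie well to the right of the intervals.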

How the data were processed

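RNA sequencing of polyadenylated RNA from 20 samples labelled mouse ovary, in 4 groups of 5, was analysed. The authors' deposited table holds expected counts per gene, which were rounded to whole numbers for the tests. The submitters' processing notes name HISAT2, StringTie, RSEM and DESeq2 and the build GRCm38.p6, without versions; strandedness, annotation release and filters are not given in the sources used here. The labels give the same batch for all 20 libraries. Genes passing filterByExpr (minimum count 10) were fitted in 1 edgeR 4.0.16 quasi-likelihood model (R 4.3.3) of all 4 groups with TMM factors, 16 residual degrees of freedom and a common biological coefficient of variation of 0.439. Calls are at a Benjamini-Hochberg adjusted p under 0.05 over the 15723 genes tested, for ptLNPIFN-Y minus Model and for ptLNPIFN-Y minus LNPIFN-Y. CPM scale counts to TMM-adjusted library size, and SE belongs to the log2 fold change. List means use log2 CPM with a prior count of 2, centred on each gene's mean over 20 libraries. The procedure was tested on simulated data with 100 genes changed 2-fold and 100 changed 4-fold. It found 53% and 75% of these, and 0.8% of its calls were false. A gene that did not pass can therefore still differ. The simulation drew each gene independently and left out differences in tissue content between libraries, so its false share need not hold for the calls reported here. Gene lists and members were chosen with earlier results of these data known. Named genes were core IFN-γ genes, the 15 highest and 15 lowest non-overlapping calls whose log2 CPM averaged 1 or more over the 20 libraries (clone-type symbols and immunoglobulin or T cell receptor segments left out), and per list the 4 smallest p-values with the highest and lowest fold change, of which the text gives a selection. Alternatives were DESeq2 1.42.0, limma 3.58.1 with sample weights, other scalings, filters and designs, and each library left out. Counting limits precision at low counts.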

Additional observations from a re-analysis of the deposited data

Results flagged for a closer look

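In 41 of 308 groups of 5 gene values and in 4 of 76 groups of 5 list means, 1 library lay so far from the other 4 that its gap to the nearest, divided by the range, passed Dixon's critical value of 0.71. For independent, normally distributed values chance flags about 1 in 20 such groups. CPM near 0 are not of that kind, since 1 nonzero library sets the ratio, as for Cngb3 in Model. The genes were also chosen with their values known, so that rate is no yardstick for the counts of groups given here. No cause of a distant library was tested.

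Model library 3 was the distant one in 18 of the 45 groups. It was the highest of Model for Tgtp2 (74.7 CPM), Ubd (0.85 CPM), Gsdmd (76.8 CPM), Samhd1 (133 CPM), Ch25h (6.37 CPM) and Msln (179 CPM). Among antigen presentation genes it was the highest for Ciita (66.5 CPM), H2-Aa (1031 CPM), H2-Ab1 (576 CPM) and H2-DMb2 (9.89 CPM). Among immune signals and receptors it was the highest for Cxcl9 (35.1 CPM), Cd40 (2.85 CPM), Fcgr4 (14.2 CPM), Havcr2 (8.98 CPM), Il12rb1 (3.28 CPM), Tlr9 (3.34 CPM) and Tnf (1.82 CPM). The mean of the mast cell and eosinophil list in that library was 0.92 on the centred log2 scale.

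Model library 2 was the highest of its group for Lcn2 (647 CPM), Plac8 (143 CPM), Pcp4l1 (118 CPM), Tspan2 (54.6 CPM), Irf7 (44.2 CPM), Adamts4 (35.7 CPM) and Il18bp (19.1 CPM). Model library 5 was the highest for H2-Ob (24.2 CPM), Mmp8 (16.1 CPM), Ido1 (0.226 CPM) and Cngb3 (0.0566 CPM) and the lowest for Ccne1 (2.55 CPM). Model library 4 was the lowest for Pdcd1lg2, at 0 CPM.

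In ptLNPIFN-Y, library 2 was the highest for H2-Q4 (660 CPM), Rsad2 (146 CPM), Saa3 (139 CPM) and Cd209d (0.125 CPM). Library 3 was the highest for Lcn2 (379 CPM), Foxj1 (79.9 CPM) and Mmp8 (3.5 CPM) and the lowest for the mean of the NK and cytotoxic list (0.8 on the centred log2 scale). Library 5 was the highest for Ubd (218 CPM) and for the erythroid list mean (2.6), and the lowest for the G2/M list mean (-0.72). Library 1 was the highest for Fshr (38.9 CPM) and Zkscan16 (3.38 CPM), and library 4 the highest for Ccne1 (8.98 CPM).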

How the results depend on the processing

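The 951 higher genes ranged from 713 to 1578 with 1 library left out and reached 1946 with sample quality weights, while the other alternatives stayed within 1.5 times. The 149 lower genes were less stable, with a range from 57 to 685 with 1 library left out, 622 in DESeq2, 731 with library size alone, 226 with upper-quartile scaling, 766 with sample quality weights, 44 with the 2 groups alone, 80 with tissue covariates (means of the ciliated and of the granulosa and oocyte lists) and 49 with a change of 2-fold or more required. The replicate number as a block gave 797 higher and 79 lower genes. Its 5 correlations of same-numbered libraries ran from -0.484 to 0.582, so the numbers were not taken as pairing. Of the 1100 calls, 1100 passed in DESeq2, 1034 with library size alone, 860 with the block, 726 with tissue covariates and 697 of 1071 tested with the 2 groups alone. Sample quality weights gave 71.8% of calls higher and DESeq2 67.7%, against 86.5%. Of 154 named genes, 121 kept their direction and side of the threshold under all 19 alternatives; 15 lost the call with the 2 groups alone, 13 with tissue covariates and 14 without Model library 4. The direction turned for Cyp11a1 (0.05), Fshr (0.19), Inha (0.12) and Zp3 (0.31) with tissue covariates, for Pdia3 (-0.05) with library size alone and for Lcn2 without Model library 2 (its values with 1 library left out ran from -3.71 to 1.77), none of them past the test. The cause of these changes was not tested. Fshr, Inha and Zp3 belong to lists that form a tissue covariate, so that fit cannot judge their change. The contrast of ptLNPIFN-Y with LNPIFN-Y gave 0 genes in either direction under each alternative run. Genes below about 1 CPM rest on under 20 counts per library.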

Other observations

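Of the 951 genes higher in ptLNPIFN-Y than in Model, 690 stood in none of the 38 gene lists, and of the 149 lower genes 146 stood in none. The genes named from here on were chosen after their values were seen. Ly6a (Sca-1), a surface protein of stem cells, endothelium and activated lymphocytes, had 722, 1677, 803, 931 and 1637 CPM in ptLNPIFN-Y libraries 1 to 5, against 38.1, 144, 65.5, 23.5 and 26.5 CPM in Model, which is a log2 difference of 4.28 (adjusted p = 1.14e-05 in edgeR), or 4.91 without Model library 2. Serpina3f, a serine protease inhibitor, was at 6.05, its relative Serpina3g at 3.18 and Ly6c1 at 3.25 on the same scale. Samhd1, which depletes nucleotides in myeloid cells, rose by 2.96, Ch25h, which makes an antiviral oxysterol, by 2.68, and Xdh, the xanthine dehydrogenase, by 2.85. Slamf8, a myeloid receptor, rose by 3.75, Ptprc (CD45), which all leukocytes carry, by 2.33, and Dnase1l3, a DNA-degrading enzyme of dendritic cells and macrophages, by 4.25.

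Other genes were uneven between libraries or near 0 in 1 group. Mup19, a major urinary protein of a family of near-identical copies, had 67.3, 15.2, 3.13, 1.07 and 196 CPM in ptLNPIFN-Y and 1.88, 3.89, 0.0607, 2.31 and 0.113 CPM in Model (log2 fold change 5.09, adjusted p = 0.0235 in edgeR). Its log2 fold change was 3.7 without ptLNPIFN-Y library 5 and 5.68 without Model library 2, and it did not pass with tissue covariates or in 4 of the 10 fits that left out a library. Cngb3, a channel subunit of cone photoreceptors, had 454 counts in ptLNPIFN-Y and 1 count in Model, which lay in library 5, a ratio of 454 with a 95% counting interval from 81.1 to 18000. Among lower genes, Ccl24, an eosinophil chemokine of macrophages, had 0.0615, 0.188, 0, 0 and 0.201 CPM in ptLNPIFN-Y and 1.19, 0.872, 0.668, 0.537 and 0.622 CPM in Model (log2 fold change -3.03, adjusted p = 0.0124 in edgeR). Cd209d, a lectin related to Cd209a, had 2 counts in ptLNPIFN-Y, both in library 2, and 26 counts in Model, a ratio of Model over ptLNPIFN-Y of 13 with a counting interval from 3.25 to 113. The counting intervals rest on summed counts and leave out the spread between libraries. In edgeR, Cngb3 passed in each of the 10 fits that left out a library and Cd209d in 7 of them. Cd209d did not pass with tissue covariates (edgeR adjusted p = 0.0803). No explanation of these values was tested.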
